A study of Homo sapiens with 6 samples.

Results

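The genes that copy DNA are described here as they were measured in HCT116 cells after transfection of a microRNA mimic. The members were chosen by name, as known parts of the replication origin and the replication fork, and the rule used no threshold on measured values. They number 52 of the 58735 genes listed. HCT116 is a human colorectal cancer cell line that grows as an epithelial sheet. The study labelled 3 libraries as wild-type control (CTR) and 3 as transfected with miR-8485 mimics, used at 50 nM. A figure legend of the paper defines CTR as cells transfected with a control. The transfection methods give collection at 48 h after transfection or at times stated per experiment. The RNA-seq methods name no time of their own. They describe the libraries of each group as independent biological replicates. The sequence and dose of the control are not given in the sources used here. All of the cells belong to a single line, so the values stand for that line. The comparison asks how transfected miR-8485 changes the RNA of these cells.

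DNA replication starts at origins, which are bound by the origin recognition complex. In G1, CDC6 and CDT1 load rings of MCM2 to MCM7 onto the DNA, and in S phase CDC45 and the GINS proteins join a ring and turn it into the moving helicase. Polymerase alpha with primase starts each strand, polymerase epsilon extends the leading strand, polymerase delta extends the lagging strand with the sliding clamp PCNA, and nucleases and a ligase join the pieces. Many of these genes are transcribed under E2F factors in cells that are entering S phase, and tumour cell lines keep them at high levels.

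The mimic is shown first because its seed (bases 2 to 8, in capitals) sets which sites in mRNA can pair with it. It holds 17 bases, and the site that pairs with the whole seed reads TGTGTGT in the DNA strand of the mRNA.
miR-8485 mimic: cACACACAcacacguau
Of the 50 members tested, 8 (16.0%) held that site at least once in the 3′ UTR of the canonical GENCODE 44 transcript, against 3086 (28.9%) of the 10675 tested genes with such a 3′ UTR. The median 3′ UTR was 965 bases in the members and 1287 bases in those genes. CDC6 held 4 copies, LIG1 and RFC1 2 copies each, and ORC2, GINS1, POLA1, RFC2 and RPA1 1 copy each. In LIG1 and RFC1 the copies overlap within a single TG run, so each has 1 place and not separate sites. The first copy in the longest TG run of each of these 3′ UTRs is printed below in the sense of the mRNA, with the site in capitals and the hg38 position.
CDC6, chr17:40304531-40304544, plus strand: ggagTGTGTGTcta
LIG1, chr19:48115513-48115529, minus strand: ggggTGTGTGTgtgagg
RFC1, chr4:39288017-39288031, minus strand: ctcTGTGTGTgttga
RFC2, chr7:74231543-74231556, minus strand: atcTGTGTGTgggt
GINS1, chr20:25446477-25446489, plus strand: tccTGTGTGTctt
RPA1, chr17:1898427-1898439, plus strand: ctcTGTGTGTtcc
POLA1, chrX:24996916-24996928, plus strand: accTGTGTGTttt
ORC2, chr2:200910851-200910863, minus strand: ttcTGTGTGTcag
POLE4, CLSPN, CDC45 and MCM10, which had 4 of the 5 largest falls among the members, held no copy in the 3′ UTR. In the coding part, POLE held the most copies, 4, with a log2 fold change of -0.26. CDC45 held 2 there, ORC1, MCM2, MCM6, MCM10 and RFC3 held 1 each, and POLE4 and CLSPN held none. Coding copies were not counted over all genes. A copy is a match of letters and was not measured as a bound site.

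The promoters are shown because the members share letters there. RefSeq promoters (GRCh38.p14, 250 bases before the start and 50 after it) were matched for 45 of the 52 members. Any of the E2F words TTTCCCGC, TTTGGCGC, TTTGCCGC and TTTCGCGC, read on both strands, stood in 19 of the 45 (42.2%), in 497 of the 8766 promoters of tested genes (5.67%) and in 908 of all 27305 promoters (3.33%). The NF-Y word CCAAT stood in 27 member promoters (60.0%), in 37.0% of the promoters of tested genes and in 35.7% of all promoters. The CHR word TTTGAA, an element of late cell cycle genes, stood in 0 of the 45, in 9.05% of the promoters of tested genes and in 15.4% of all. Words on opposite strands can share bases, as they do in MCM6. The stretches around the E2F words (capitals) are given for the matched members that held a word and fell by at least 0.6 on the log2 scale, and for MCM7, which rose.
POLE4, chr2:74958592-74958639, plus strand: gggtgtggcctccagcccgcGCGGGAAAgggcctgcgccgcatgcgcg
CLSPN, chr1:35769956-35770003, minus strand: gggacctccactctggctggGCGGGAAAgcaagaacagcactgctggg
CDC6, chr17:40287866-40287913, plus strand: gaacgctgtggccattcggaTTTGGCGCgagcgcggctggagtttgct
RFC3, chr13:33818074-33818121, plus strand: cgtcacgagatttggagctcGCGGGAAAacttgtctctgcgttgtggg
GINS2, chr16:85688958-85689005, minus strand: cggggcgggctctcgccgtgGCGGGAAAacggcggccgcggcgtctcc
PCNA, chr20:5126654-5126701, minus strand: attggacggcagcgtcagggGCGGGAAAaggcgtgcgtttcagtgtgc
MCM6, chr2:135876502-135876615, minus strand: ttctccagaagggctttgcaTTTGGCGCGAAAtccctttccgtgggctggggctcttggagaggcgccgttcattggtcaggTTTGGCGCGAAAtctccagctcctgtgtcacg
MCM7, chr7:100101379-100101426, minus strand: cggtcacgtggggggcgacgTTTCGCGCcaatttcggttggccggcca
POLE4, CLSPN, RFC3, GINS2 and PCNA carried the same letters, GCGGGAAA, and so did members not printed that changed less, CDT1 (-0.29), ORC3 (-0.30) and GINS3 (-0.36), as well as the upstream word of MCM7. MCM6 carried 4 overlapping words in 2 places, and MCM7 carried 1 word in the stretch shown. Such a match describes the letters in this window and is not a measured site, and the absence of a word says nothing about a factor.

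Levels are given as FPKM, the fragments on a gene scaled by its length and by the total of the library, so a value is relative to all other RNA of that library. The libraries held 17473874 to 18480047 fragments on listed genes. CTR replicate 1 stood further from the other CTR libraries (chi-square per gene 10.1 and 12.7) than those did from each other (3.23), while pairs across the groups lay between 76.3 and 87.7. Of the 8 epithelial markers 7 were tested, and EPCAM (127 to 148 FPKM) and CDH1 did not pass the test, KRT8, KRT18 and KRT19 fell, and KRT20 and CDX2 rose. KRT20 was low in level, at 0.509 to 2.56 FPKM from 17 to 85 fragments. The marker not tested, VIL1, was near 0, at 0 to 0.0639 FPKM. Markers of other cells were near 0: the 6 leukocyte markers summed to 0.109 to 0.592 FPKM and the 4 endothelial markers to 0.139 to 0.312 FPKM per library, with CD3E at 0 in all 6. Of the 6 fibroblast markers, DCN was at 0 in all 6 libraries and only COL1A1 was above 1 FPKM, at 4.05 to 4.38 FPKM in CTR and 6.27 to 6.40 FPKM in miR-8485, where it rose (log2 fold change 0.56, adjusted p = 0.000133, limma). Its part in the results was not tested. In bulk RNA, fewer cells in S phase and less of these RNAs in each cell cannot be told apart.

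Most of the replication genes fell after the mimic. Among the 50 members with a mean of at least 1 FPKM, 34 were lower in miR-8485, 3 were higher (MCM7, POLD4 and RNASEH2C) and 13 did not pass the test (limma on log2(FPKM + 0.1), Benjamini-Hochberg adjusted p under 0.05 over all 12349 genes tested). Over all those genes, 30.5% were called lower and 29.1% called higher, against 68.0% and 6.0% of the tested members. The median log2 fold change was -0.31 over the tested members and -0.0041 over all genes tested, and the members' difference lay below 0 in 44 of 50. Every miR-8485 library lay below every CTR library for 36 members and above for 3, where 34.0% and 32.5% of all genes tested did so. The median of the members, taken in each library relative to the CTR mean, was 0.01, -0.0015 and 0.0044 in CTR and -0.33, -0.32 and -0.30 in miR-8485. The falls were mostly small: 5 of the tested members fell by more than 1 on the log2 scale, 11 by 0.5 to 1, and 18 of those called by less than 0.5.

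**Figure D1:**
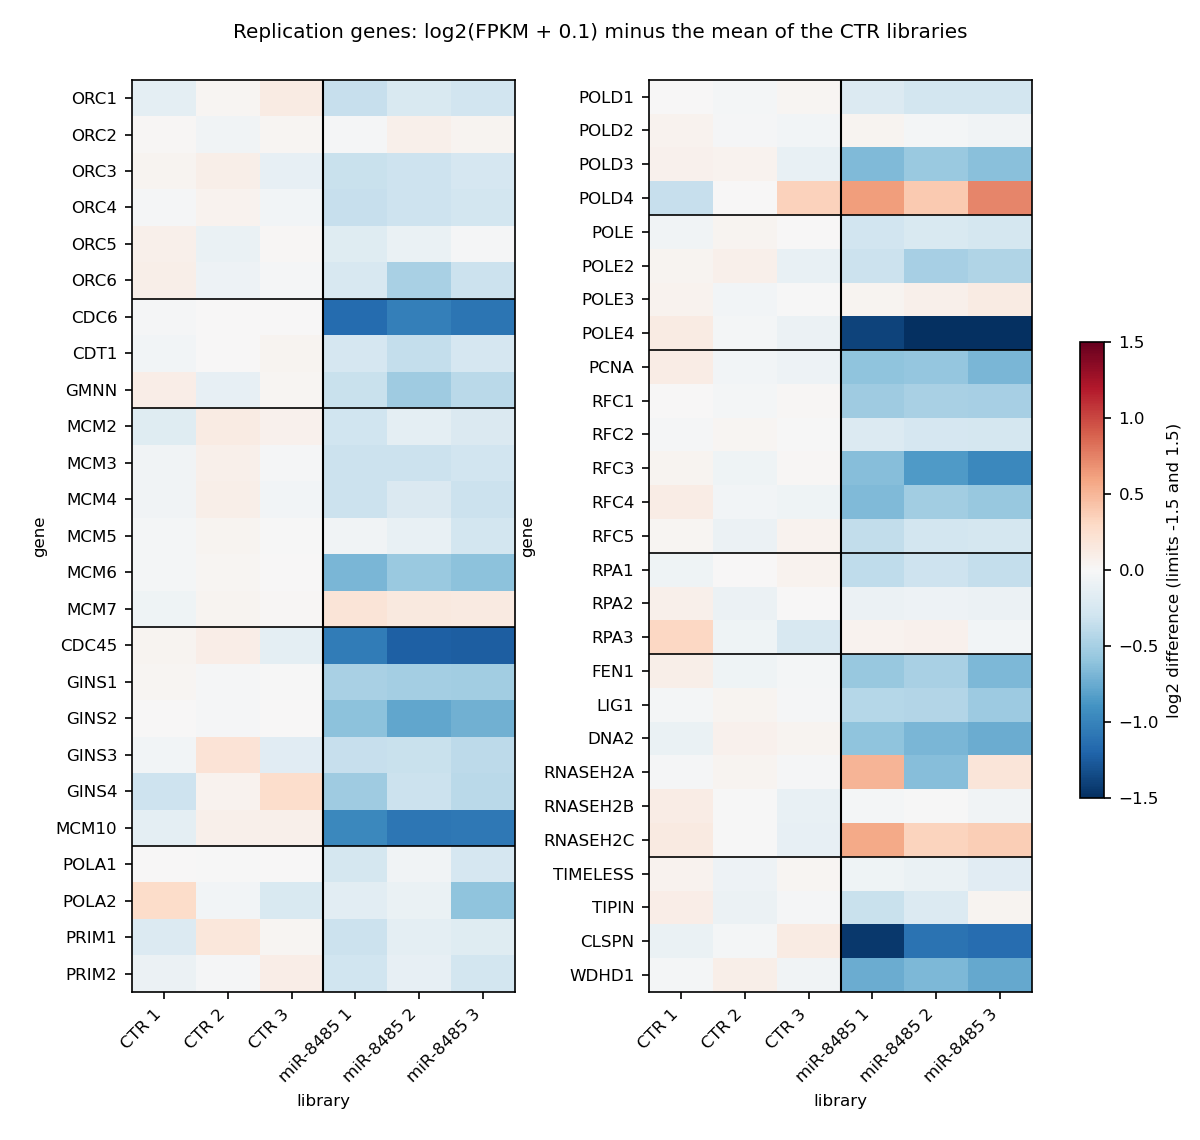
Colour gives log2(FPKM + 0.1) of each of the 52 members (lines, grouped by role) in each of the 6 libraries (columns) minus the mean of the 3 CTR libraries; blue is lower and red is higher, with limits at -1.5 and 1.5. The miR-8485 columns are blue for most genes, darkest for POLE4, CLSPN, CDC45, CDC6 and MCM10, and red for MCM7, POLD4 and RNASEH2C.

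**Figure D2:**
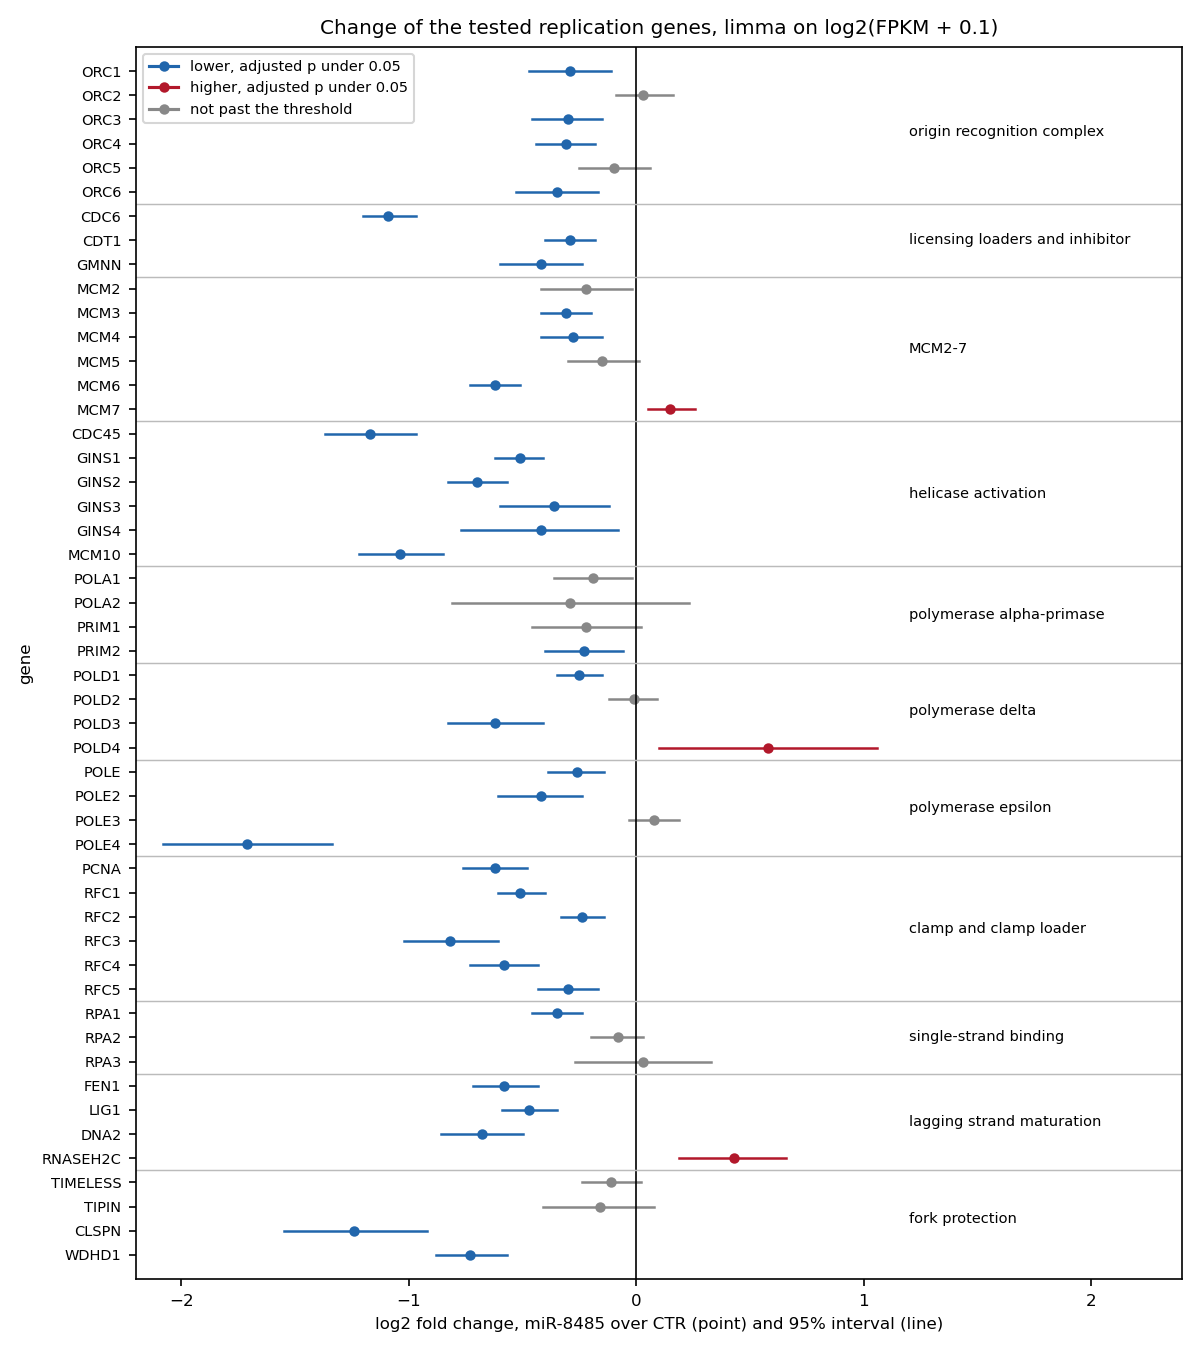
Each point is the log2 fold change of miR-8485 over CTR for 1 of the 50 tested members, with its 95% interval as a line, ordered by role and coloured by the call at an adjusted p under 0.05. The points run from -1.71 (POLE4) to 0.58 (POLD4), and 34 lie in the lower class.

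The members differ widely in level. In CTR, PCNA stood highest at 206 ± 14.8 FPKM (SD, n = 3), above MCM7 at 76.2 ± 3.03 FPKM (SD, n = 3) and FEN1 at 67.3 ± 3.85 FPKM (SD, n = 3). POLD2 (54.8 FPKM) and MCM3 (54.7 FPKM) followed and did not differ beyond their spread. PCNA, MCM7 and FEN1 were each separated from the next gene by more than their SD. At the low end stood POLD4 (1.16 FPKM), RNASEH2B (0.946 FPKM) and RNASEH2A (0.293 FPKM). FPKM divides by the length of all annotated exons of a gene, so the order also reflects the annotation.

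The origin recognition complex marks origins and is the platform for loading. Of its 6 genes, 4 fell (ORC1, ORC3, ORC4 and ORC6) and 2 did not pass the test (ORC2 and ORC5), with a group median of -0.30 on the log2 scale. ORC1, the subunit whose level follows the cell cycle, was at 7.84, 8.86 and 9.47 FPKM in CTR and 6.81, 7.39 and 7.12 FPKM in miR-8485. The groups did not overlap, and its log2 fold change was -0.29 ± 0.078 (SE, adjusted p = 0.0143, limma). ORC6, the smallest subunit, had the largest change of the complex at -0.35, with 8.78 to 9.90 FPKM in CTR and 6.60 to 7.82 FPKM in miR-8485. ORC3 and ORC4 changed by -0.30 and -0.31. ORC2, with 7.62 to 8.12 FPKM against 7.84 to 8.33 FPKM, had a 95% interval of -0.09 to 0.16, and ORC5 one of -0.25 to 0.06. In 1 of 18 alternatives, with the GC trend removed, ORC2 was called higher (log2 fold change 0.15, adjusted p = 0.0298, limma).

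All 3 licensing genes fell. CDC6, the ATPase that brings the helicase ring to the origin (hg38 chr17:40287633-40304657, plus strand), was at 21.1, 21.6 and 21.6 FPKM in CTR and 9.61, 10.5 and 10 FPKM in miR-8485. The miR-8485 libraries lay far below CTR without overlap, at 46.9% of its mean, and the log2 fold change was -1.09 ± 0.050 (SE, adjusted p = 5.2e-06, limma). CDT1, its loading partner, was at 38.7, 39.9 and 41.1 FPKM in CTR and 33.4, 31.2 and 33.4 FPKM in miR-8485, a smaller fall at a log2 fold change of -0.29 (adjusted p = 0.00148, limma). GMNN, which encodes geminin, the inhibitor that binds CDT1, was at 23.0, 19.6 and 21.8 FPKM in CTR and 17.0, 14.8 and 16.2 FPKM in miR-8485. Its groups did not overlap either, and it changed by -0.42 (adjusted p = 0.00228, limma). The ratio of CDC6 to CDT1 went from 0.539 ± 0.0111 to 0.309 ± 0.0263 (SD, n = 3), with no overlap between the groups. The ratio of GMNN to CDT1, 0.539 ± 0.0522 in CTR and 0.489 ± 0.0178 in miR-8485 (SD, n = 3), overlapped.

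The 6 genes of the helicase ring did not move together. MCM3, MCM4 and MCM6 fell, MCM7 rose, and MCM2 and MCM5 did not pass the test. MCM6 fell most, from 34.1, 35.5 and 35.0 FPKM in CTR to 21.6, 23.6 and 22.7 FPKM in miR-8485. Its groups lay well apart, and its log2 fold change was -0.62 ± 0.048 (SE, adjusted p = 3.7e-05, limma). MCM3 and MCM4 changed by -0.31 and -0.28 without overlap. MCM7 (chr7:100092728-100101940, minus strand) was at 72.9, 78.7 and 77.1 FPKM in CTR and 86.9, 84.2 and 83.5 FPKM in miR-8485. All 3 miR-8485 libraries lay above CTR, by little, with a log2 fold change of 0.15 ± 0.044 (SE, adjusted p = 0.0186, limma). This call was lost when values were rescaled to TPM (FPKM divided by its sum in the library, adjusted p = 0.460, limma), which moved the median of all genes tested to -0.12, and without miR-8485 replicate 1. MCM2 was at 18.4, 22.7 and 21.9 FPKM in CTR and 17.0, 18.9 and 18.0 FPKM in miR-8485. Its low CTR replicate 1 overlapped the miR-8485 libraries, and its log2 fold change of -0.22 had an adjusted p of 0.0566 in limma and passed in 6 of 18 alternatives, among them the fit without CTR replicate 1. MCM5 changed by -0.15 (95% interval -0.30 to 0.01), although its groups did not overlap, and it was called lower in 4 of 18 alternatives.

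The ring takes 1 copy of each subunit, so the shares of the 6 RNAs are also given. MCM7 made up 31.7 ± 0.348% of the summed FPKM of MCM2 to MCM7 in CTR and 39.4 ± 0.854% in miR-8485 (SD, n = 3), and MCM6 went from 14.5 ± 0.352% to 10.5 ± 0.423% (SD, n = 3). Neither share overlapped between the groups. The sum itself was 230, 251 and 241 FPKM in CTR and 215, 218 and 212 FPKM in miR-8485. Exons of MCM7 share 7.90% of their bases with AP4M1 on the opposite strand (2.93 FPKM), and MCM7 also hosts MIR93.

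All 6 genes of helicase activation fell, with a median of -0.61. CDC45, which joins the ring to form the active helicase (chr22:19479459-19520612, plus strand), was at 11.0, 11.4 and 9.63 FPKM in CTR and 5.11, 4.51 and 4.46 FPKM in miR-8485. The highest miR-8485 library was far under the lowest CTR library, and the log2 fold change was -1.17 ± 0.084 (SE, adjusted p = 2.8e-05, limma). MCM10, which is needed to start unwinding (chr10:13161554-13211104, plus strand), was at 7.17, 8.37 and 8.35 FPKM in CTR and 4.03, 3.70 and 3.73 FPKM in miR-8485. It too was separated in every library, with a log2 fold change of -1.04 ± 0.079 (SE, adjusted p = 3.4e-05, limma). The GINS genes encode a 4-part ring that holds CDC45 to the helicase. GINS2 was at 14.6, 14.3 and 14.6 FPKM in CTR and 9.43, 8.44 and 8.73 FPKM in miR-8485, a change of -0.70 (adjusted p = 4.0e-05, limma), and GINS1 changed by -0.51. GINS3 and GINS4, the lowest of this group in level, changed by -0.36 and -0.42 with wider intervals, -0.60 to -0.12 and -0.77 to -0.08. Their calls were the least stable of the group: GINS4 lost its call in 8 of 17 alternatives and GINS3 in 2. CDC45 relative to MCM7 went from 0.140 ± 0.0138 to 0.0553 ± 0.00306 (SD, n = 3), without overlap.

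**Figure D3:**
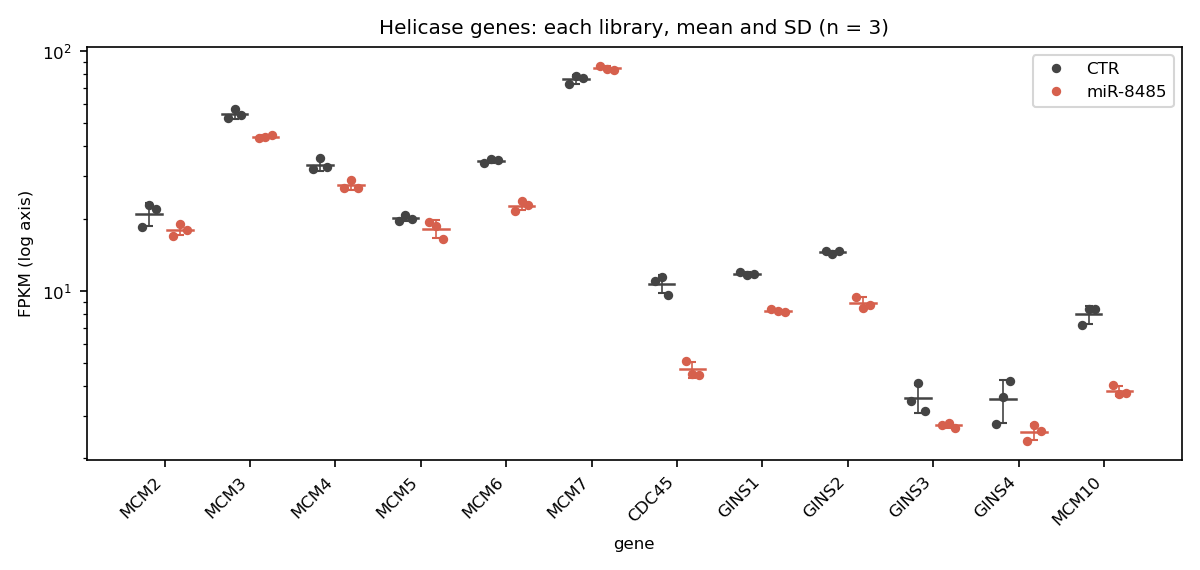
FPKM on a log axis of the 6 ring genes and the 6 activation genes in each library (points), with the mean (bar) and SD (whisker, n = 3) of CTR in grey and miR-8485 in red. MCM7 is the gene whose miR-8485 points lie above CTR, and CDC45 and MCM10 show the widest gaps.

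Polymerase alpha-primase, which lays the first RNA and DNA of each strand, changed least clearly. Of its 4 genes only PRIM2, the large primase subunit, passed the test, at -0.23 (adjusted p = 0.0262, limma), and it lost that call in 7 of 18 alternatives. POLA1, the catalytic subunit, was at 4.61, 4.56 and 4.60 FPKM in CTR and 3.81, 4.42 and 3.84 FPKM in miR-8485. Its groups did not overlap, with miR-8485 replicate 2 close to CTR, and its log2 fold change of -0.19 had an adjusted p of 0.0600 in limma. PRIM1, the catalytic primase, had a log2 fold change of -0.22 with an interval of -0.46 to 0.02. POLA2, read from only 86 to 159 fragments per library, had -0.29 with an interval of -0.81 to 0.23.

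The subunits of polymerase delta and of polymerase epsilon diverged. For polymerase delta, POLD1, the catalytic subunit, changed by -0.25 (adjusted p = 0.00210, limma). POLD3, an accessory subunit that binds PCNA, was at 3.18, 3.16 and 2.80 FPKM in CTR and 1.88, 2.04 and 1.93 FPKM in miR-8485. The groups stood clear of each other, with a log2 fold change of -0.62 ± 0.091 (SE, adjusted p = 0.000834, limma). POLD2, the subunit that links the others, overlapped, at 53.3 to 56.9 FPKM in CTR and 52.9 to 56.2 FPKM in miR-8485 (95% interval -0.12 to 0.09). POLD4, the smallest subunit, was at 0.873, 1.14 and 1.47 FPKM in CTR and 1.81, 1.52 and 1.95 FPKM in miR-8485. The miR-8485 libraries lay above CTR, narrowly for CTR replicate 3, and the log2 fold change was 0.58 ± 0.20 (SE, adjusted p = 0.0405, limma). It rests on 48 to 113 fragments per library and lost its call in 9 of 17 alternatives. It shares 21.3% of its exonic bases with a gene on the same strand, ENSG00000256514 (mean 0.0130 FPKM).

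For polymerase epsilon, POLE4, a histone-fold subunit (chr2:74958492-74970128, plus strand), had the largest fall of all members. It was at 4.67, 4.19 and 4.03 FPKM in CTR and 1.58, 1.21 and 1.0 FPKM in miR-8485, read from 157 to 181 and from 41 to 61 fragments. Every miR-8485 library lay far below CTR, at 29.4% of its mean, with a log2 fold change of -1.71 ± 0.16 (SE, adjusted p = 8.8e-05, limma). Its histone-fold partner POLE3 was at 38.4, 35.8 and 36.8 FPKM in CTR and 38.1, 39.0 and 40.2 FPKM in miR-8485. Those groups overlapped, with a log2 fold change of 0.08 (95% interval -0.03 to 0.19). The ratio of POLE4 to POLE3 was 0.116 ± 0.00588 in CTR and 0.0325 ± 0.00839 in miR-8485 (SD, n = 3). POLE, the catalytic subunit, and POLE2 changed by -0.26 (adjusted p = 0.00402, limma) and -0.42 (adjusted p = 0.00254, limma). POLE lost its call when the trend with gene length was removed.

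The clamp and all 5 subunits of its loader fell, with a median of -0.54. PCNA, the ring that tethers polymerases to DNA (chr20:5114953-5126626, minus strand), was at 223, 200 and 196 FPKM in CTR and 135, 138 and 128 FPKM in miR-8485. It remained the highest of the members in both groups, without overlap between them, and changed by -0.62 ± 0.060 (SE, adjusted p = 0.000108, limma). RFC3, a small loader subunit, was at 16.7, 15.5 and 16.4 FPKM in CTR and 10.4, 8.91 and 8.24 FPKM in miR-8485. This was the largest change of the loader, -0.82 ± 0.087 (SE, adjusted p = 0.000166, limma). RFC4 changed by -0.58, RFC1, the large subunit, by -0.51, RFC5 by -0.30 and RFC2 by -0.24, each without overlap. The ratio of PCNA to POLD2 went from 3.76 ± 0.142 to 2.47 ± 0.0860 (SD, n = 3).

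RPA, the trimer that coats single-stranded DNA, moved in 1 of its 3 genes. RPA1, the large subunit, was at 35.0, 36.7 and 38.0 FPKM in CTR and 28.0, 29.5 and 28.5 FPKM in miR-8485. It fell in every library, with a log2 fold change of -0.35 ± 0.048 (SE, adjusted p = 0.000547, limma). RPA2 and RPA3 had intervals of -0.20 to 0.03 and -0.27 to 0.33, and RPA3 varied from 9.11 to 13.4 FPKM within CTR.

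On the lagging strand, the enzymes that process and join the fragments fell. FEN1, the flap nuclease, was at 71.7, 64.3 and 66.0 FPKM in CTR and 45.3, 47.8 and 42.2 FPKM in miR-8485. The groups lay well apart, with a log2 fold change of -0.58 ± 0.062 (SE, adjusted p = 0.000182, limma). DNA2, a nuclease for long flaps, was at 4.07, 4.59 and 4.50 FPKM in CTR and 2.84, 2.68 and 2.58 FPKM in miR-8485, a change of -0.68 (adjusted p = 0.000242, limma). LIG1, the ligase that seals the fragments, changed by -0.47 (adjusted p = 0.000219, limma). RNase H2 removes ribonucleotides from DNA, and 1 of its 3 genes passed the test. RNASEH2C, a structural subunit, was at 2.91, 2.64 and 2.42 FPKM in CTR and 3.99, 3.36 and 3.46 FPKM in miR-8485. All miR-8485 libraries were higher, with a log2 fold change of 0.43 ± 0.10 (SE, adjusted p = 0.00845, limma), and it kept its call in 17 of the 17 refits that tested it, more than MCM7 or POLD4 did, though it falls short of a log2 threshold of 0.5 and 28.9% of its exonic bases lie opposite exons of KAT5. The counting is not stated to use strand, and the part of KAT5 reads in this value was not tested. RNASEH2A (0.152 to 0.458 FPKM, from 10 to 30 fragments) and RNASEH2B (0.870 to 1.03 FPKM, from 414 to 487 fragments) lay under the filter of 1 FPKM. In the fit of all 31768 genes above 0 they had intervals of -0.91 to 0.94 and -0.39 to 0.34. RNASEH2A shares 53.3% of its exonic bases with THSD8 on the same strand (mean 0.0261 FPKM), and the effect of this on its low value was not tested.

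Among the genes that protect and couple the fork, CLSPN and WDHD1 fell, and TIMELESS and TIPIN did not pass the test. CLSPN encodes claspin, the mediator between a stalled fork and the kinase CHEK1 (chr1:35720218-35769967, minus strand), and was at 2.66, 2.80 and 3.10 FPKM in CTR and 0.977, 1.27 and 1.23 FPKM in miR-8485. The miR-8485 libraries were all below CTR, at 40.6% of its mean, with a log2 fold change of -1.24 ± 0.13 (SE, adjusted p = 0.000184, limma). WDHD1, which ties polymerase alpha to the helicase, was at 5.48, 5.91 and 5.35 FPKM in CTR and 3.29, 3.46 and 3.23 FPKM in miR-8485, a change of -0.73 (adjusted p = 8.1e-05, limma). TIMELESS and its partner TIPIN had log2 fold changes of -0.11 and -0.16 with intervals of -0.24 to 0.02 and -0.41 to 0.08. The ratio of CLSPN to TIMELESS, which act at the same fork, was 0.222 ± 0.0193 in CTR and 0.0976 ± 0.0156 in miR-8485 (SD, n = 3).

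The changes are set beside the sequences printed above. The 19 members with an E2F word, all tested, had 15 called lower and 1 called higher (MCM7), with a median of -0.42. The 24 tested members without the word had 15 called lower and 2 called higher, with a median of -0.27, and CDC45 and MCM10 were among them. Over the 8766 tested genes with a matched promoter, the medians were -0.06 with the word and -0.02 without. The 8 members with a seed site in the 3′ UTR ran from -1.09 (CDC6) to 0.03 (ORC2), with a median of -0.41, and members without it had a median of -0.30. Over all tested genes with a 3′ UTR, the medians were -0.16 with the site and 0.02 without.

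**Figure D4:**
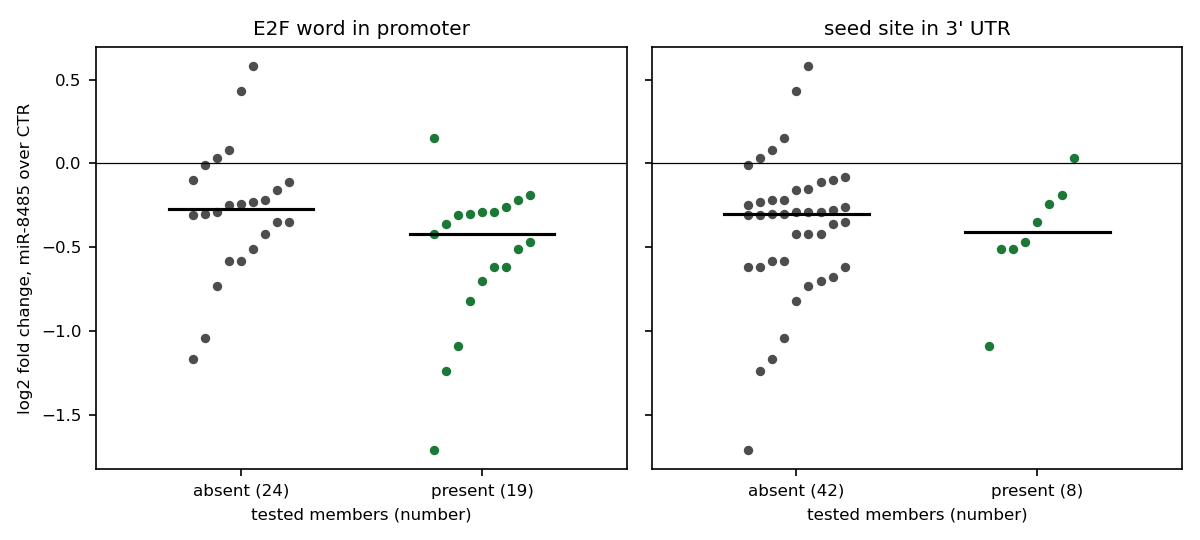
Log2 fold change of miR-8485 over CTR for each tested member (points), split by an E2F word in the promoter (left, matched members) and by a seed site in the 3′ UTR (right); bars are medians. The classes overlap widely, with medians of -0.27 and -0.42 on the left and -0.30 and -0.41 on the right.

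Other replication and S phase genes, in 6 lists chosen by function, gave 29 lower and 4 higher of 40 tested, with a median of -0.40. All 11 genes that control licensing and origin firing were called lower, although CDC7 kept that call in only 8 of 18 alternatives, LRWD1 in 9 of 18 and MTBP in 12 of 17. Among them were FBXO5 (the APC/C inhibitor EMI1, -1.09), DTL (the adaptor that targets CDT1 for degradation, -0.86), DBF4 (the activator of the kinase CDC7, -0.66) and MCMBP (an MCM-binding protein, -0.65). All 4 alternative clamp loader genes were called lower, with CHTF18 at -0.65 and DSCC1 at -0.63, and ATAD5 (-0.45) kept its call in 10 of 17 alternatives. Of 6 genes of deoxynucleotide supply 5 fell, led by RRM2, the regulated subunit of ribonucleotide reductase, which went from 52.5, 54.2 and 56.0 FPKM to 22.3, 22.8 and 21.0 FPKM (log2 fold change -1.29, adjusted p = 2.4e-06, limma). TYMS, thymidylate synthase, changed by -0.86.

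The S phase checkpoint was split. CHEK1, the kinase that claspin serves, fell by 0.80 on the log2 scale, from 6.84 to 6.96 FPKM in CTR to 3.71 to 4.01 FPKM in miR-8485, and RAD17, RAD1 and HUS1 were also called lower, RAD17 in 16 of 18 alternatives, RAD1 in 8 of 17 and HUS1 in 11 of 17. ATR, the kinase upstream of CHEK1, rose from 2.08, 2.11 and 2.22 FPKM to 3.18, 2.69 and 3.22 FPKM (log2 fold change 0.48, adjusted p = 0.00374, limma), its partner ATRIP rose by 0.32 (called in 16 of 17 alternatives, not after TPM) and its activator ETAA1 by 0.47. Of 5 tested genes of translesion synthesis 1 fell, RAD18, the ligase that modifies PCNA, at -0.87. In chromatin assembly 4 of 6 fell, with CHAF1B, a subunit of the PCNA-bound histone chaperone, at -0.80 and MMS22L, which acts at damaged forks, at -0.74, while SUPT16H, a subunit of FACT, rose by 0.43.

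All 9 G1/S regulators were called lower, the brakes included, with CCNE2 called in 14 of 17 alternatives. CCND1, cyclin D1, went from 209, 216 and 223 FPKM to 25.0, 21.8 and 24.3 FPKM (log2 fold change -3.18, adjusted p = 4.1e-07, limma). The activators E2F1, E2F2 and E2F3 changed by -0.72, -0.84 and -0.86. The inhibitor genes RB1 and CDKN1A changed by -0.50 and -0.68. Of 20 mitotic genes 19 fell, with a median of -0.87 against -0.31 in the replication genes, led by MKI67 (-2.12) and BUB1 (-1.24). The difference between those medians is a description, with no test.

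**Figure D5:**
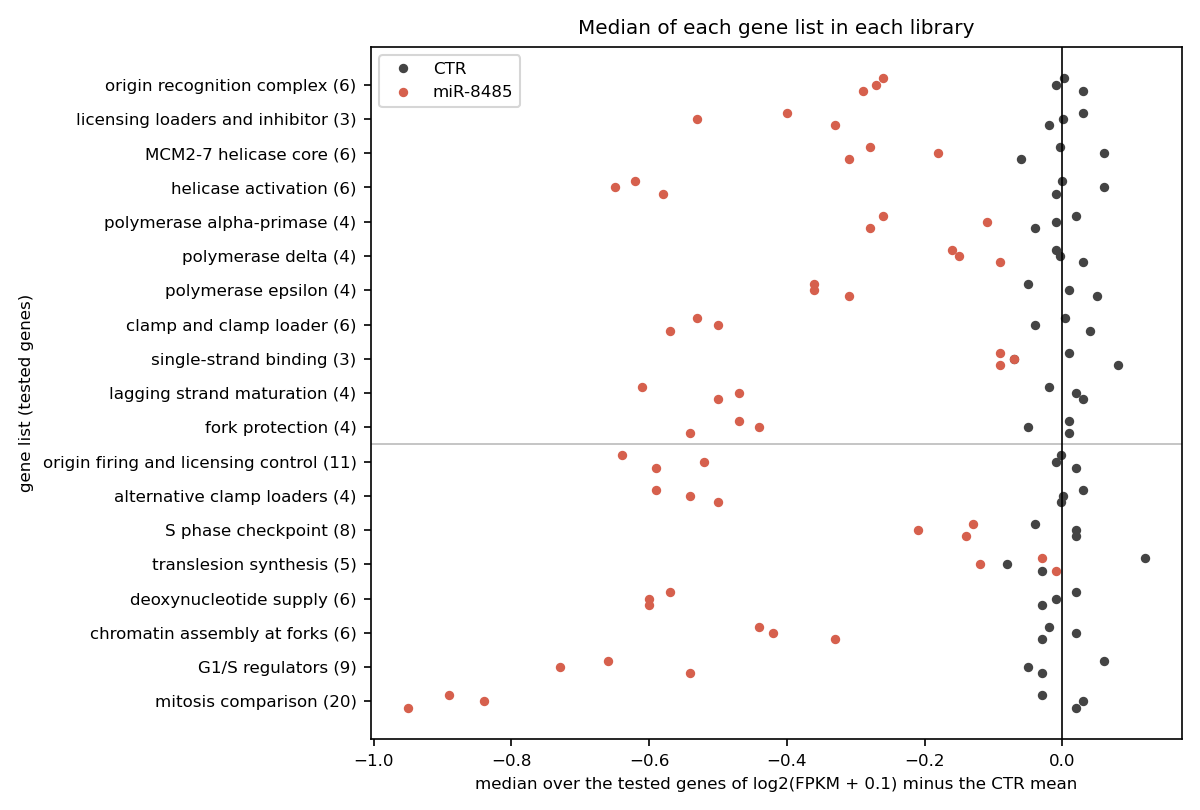
Median over the tested genes of each list (number in brackets) of log2(FPKM + 0.1) minus the CTR mean, in each CTR library (grey) and each miR-8485 library (red); replication roles stand above the line and the other lists below it. Single-strand binding and translesion synthesis lie closest to CTR, and the mitotic genes lie furthest below it.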

How the data were processed

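RNA-seq was available for 6 libraries of HCT116 cells, 3 CTR and 3 miR-8485, grouped by the labels. The table had 0 value columns that no sample matched. The authors prepared libraries with a VAHTS kit and processed the reads with fastp, HISAT2 2.0.5 (hg38) and featureCounts 1.5.0-p3, per their methods and processing notes. The annotation release and the strand setting are not given in the sources used here. The values the authors deposited are FPKM, scaled by gene length and library total only, so a change in abundant RNAs shifts all others.

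Dividing each nonzero FPKM by the worth of a single fragment gave whole fragments for 100% of values per library (within 0.05), and hence 17473874 to 18480047 fragments on listed genes. The precision of a gene follows from its fragments.

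Differential expression was tested with limma 3.58.1 (R 4.3.3) as a two-sided test with a variance trend. Values entered as log2(FPKM + 0.1). The 12349 genes averaging 1 FPKM or more were kept, and p-values were adjusted by Benjamini-Hochberg over all of them and called at an adjusted p under 0.05. Fold changes are on that log2 scale, which understates low genes, and intervals are 95% intervals. A p from 3 against 3 libraries by exact permutation cannot fall below 0.1, so none is given. The fit was tested on simulated data. Deviations from the group means of libraries with the same replicate number correlated at 0.07, 0.03 and -0.06, so the numbers were not taken as pairs. Ratios and ranges used Python 3.11.15. The ratios and shares of members follow from the single-gene values already given and are a description, with no test.

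All 52 members are named. From each other list the text names the 2 called genes with the largest change and direct partners or inhibitors of a member; RB1, E2F1, E2F2, RAD1, HUS1, SUPT16H, the markers and genes named for an unstable call were named after their values were seen. The members and lists were chosen with earlier results of these data known. The mimic sequence is that of the study's methods, 3′ UTRs come from GENCODE 44 and promoters from RefSeq (GRCh38.p14). Alternatives covered pseudocounts, filters, scalings, length and GC trends, the variance trend, a replicate block, each library left out and voom on recovered fragments. Pseudogenes of members were not used in any comparison.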

Additional observations from a re-analysis of the deposited data

How the results depend on the processing

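The 34 members called lower numbered 31 to 36 under the alternatives that kept the filter, the threshold and all libraries or dropped the filter, except 40 after rescaling to TPM. They numbered 27 of the 37 tested at a mean FPKM of at least 5, and 16 when a log2 fold change of at least 0.5 was also asked. Leaving out 1 library gave 32 to 36. With the replicate block, 36 were lower and 3 higher, so the paired fit added MCM2 and PRIM1 and lost no call. The 3 called higher were 1 at a mean FPKM of at least 5, 1 after TPM and 1 with the log2 threshold, and 1 to 3 without 1 library, the 1 being without miR-8485 replicate 1. Apart from the log2 threshold, 30 members were called lower and 1 (RNASEH2C) higher in each of the 17 or 18 refits that tested them. Members under a mean of 5 FPKM, RNASEH2C included, were not tested in the refit with that filter. Over 887 refitted member values, 829 kept direction and side of the threshold, 29 lost and 20 gained a call, and 9 changed sign, all in members near 0. These were ORC2 after TPM (-0.08), POLE3 after TPM (-0.04), POLD2 after quantile normalization and without CTR replicate 1 or miR-8485 replicate 3 (0.01), and RPA3 after TPM (-0.09), with the length trend removed (-0.01) and without CTR replicate 2 (-0.01) or 3 (-0.09), with a range of -0.09 to 0.18 without 1 library. TPM moved the median of all tested genes to -0.12, which is part of its effect by construction, and the cause of the other changes was not tested. POLE4, POLD4, POLA2 and RNASEH2A rest on the fewest fragments among the members described, and the effect of depth on them was not tested.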
